A study of Mus musculus with 4 samples.

Results

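The endocannabinoid system genes measured here were 8 of the 19465 features of a Visium-FFPE experiment on mouse brain, and they were chosen by their symbols: the receptor Cnr1, the synthesis genes Dagla, Daglb and Napepld, and the breakdown genes Mgll, Abhd6, Abhd12 and Faah. All 8 were found in each of the 4 sections. The list was drawn up with earlier results of these data known, so the levels over areas of the brain are given as a description, without a test. The sections came from wild-type male pups at postnatal day 21, born to C57BL/6J mothers. The mothers ate a diet with folic acid (FA) at 2 mg/kg (the MF group, 2 sections) or 20 mg/kg (the HF group, 2 sections), from 2 weeks before mating through pregnancy and lactation. Both groups thus received FA through the mother. Each section is a coronal slice of the brain of a separate animal, as the study calls them biological replicates, and was treated as 1 replicate; whether the animals of a group shared a litter is not given in the sources used here.

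Endocannabinoids are lipids made on demand in the membrane of neurons, and they act mostly backwards across the synapse. The CB1 receptor, the product of Cnr1, sits on axon terminals, most densely on those of interneurons that make cholecystokinin, where its activation lowers transmitter release. The diacylglycerol lipases encoded by Dagla and Daglb make 2-arachidonoylglycerol (2-AG), which the hydrolases encoded by Mgll, Abhd6 and Abhd12 break down. Napepld encodes a phospholipase that releases anandamide from membrane precursors, and Faah encodes the amide hydrolase that degrades it. A transcript marks the cell body or process that holds the RNA, which need not be where the protein works.

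Visium-FFPE counts pairs of probes bound to the RNA of a fixed section in barcoded spots, each of which covers several neighbouring cells. Levels are given in CPM, the unique molecular identifiers (UMIs) of a gene scaled to the total UMIs (as counts per 1000000) of the same area and section. Since each gene has its own probes, CPM was compared between areas and sections but not between genes. In such sums, fewer cells of a type and less RNA per cell cannot be told apart. The sections held between 34983708 and 90098381 UMIs, and MF replicate 1 was the deepest. Of 13452 spots, 12469 fell into 16 areas that were named from fixed markers of brain regions, with the 8 genes kept out of the grouping. The other 983 spots belonged to the cortex or hippocampus but to no named part of it. The area of layer 1 and surface held 377 spots in HF replicate 1 and between 166 and 176 in the other sections. Of 237 spots in 1 cluster of the thalamus, 206 were from HF replicate 1, so the main values of the thalamus are also given without that cluster.

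The 8 genes fell into patterns of very different contrast over the section. Cnr1 was highest in the olfactory areas and amygdala and in the neuropil of the hippocampus, Dagla and Faah in the cell layers of the hippocampus, Mgll in the hippocampal neuropil and the white matter, and Napepld in the thalamus. Daglb, Abhd6 and Abhd12 were more even. The mean over the 4 sections differed between the highest and the lowest area by 6.80-fold for Napepld, 5.35-fold for Cnr1, 4.70-fold for Dagla, 4.43-fold for Faah, 2.72-fold for Mgll, 2.61-fold for Abhd6, 2.18-fold for Abhd12 and 1.80-fold for Daglb. Measured as the SD over areas of log2(CPM + 1), the spread was 0.68 for Dagla, 0.66 for Faah, 0.66 for Napepld and 0.64 for Cnr1. The median over 10395 features with at least 20 CPM in an area was 0.34. Daglb, at 0.26, and Abhd12, at 0.29, lay under that median, while Mgll had 0.39 and Abhd6 had 0.40.

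**Figure D1:**
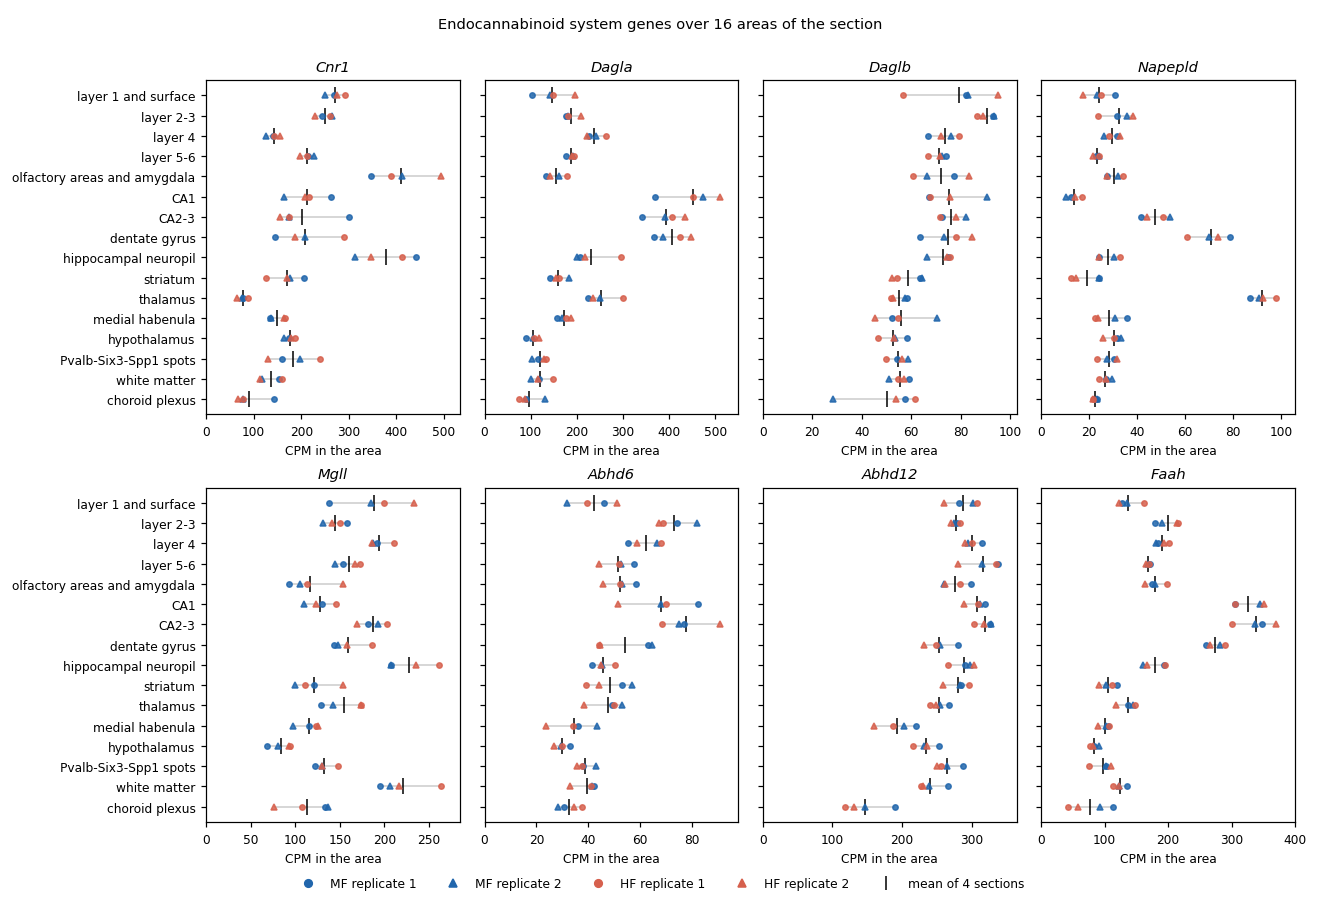
Level of each gene (x axis, CPM) in 16 areas of the section (y axis); each point is 1 section, blue for MF and red for HF, the black tick is the mean of the 4 sections and the grey line their range. Napepld stands out in the thalamus and dentate gyrus, Dagla and Faah in CA1, CA2-3 and the dentate gyrus, and Cnr1 in the olfactory areas and amygdala and the hippocampal neuropil.

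Cnr1 (ENSMUSG00000044288) lies on chromosome 4 of GRCm38 from 33924593 to 33948831, on the plus strand. In the olfactory areas and amygdala it had 346 and 412 CPM in MF and 389 and 495 CPM in HF, a mean of 410.1 ± 62.6 (SD, n = 4). The hippocampal neuropil followed with 442 and 312 CPM in MF and 412 and 347 CPM in HF. These areas overlapped, and each was the highest in 2 of the 4 sections. Next came layer 1 and surface with 272 ± 17.3 CPM, and every section of the hippocampal neuropil lay above every section of that area. Within the hippocampus the level in the neuropil was 1.78 times that in CA1, the main output layer of pyramidal cells, and the 2 areas did not overlap. In the cortex Cnr1 was 1.76-fold higher in layer 2-3 than in layer 4 and the levels of layer 5-6 also lay above those of layer 4, again without overlap. Layer 4, which receives the axons of the thalamus, thus had the least Cnr1 of the cortical layers at 142 ± 12.4 CPM. The lowest mean was that of the thalamus, where the sections had 78.0, 75.7, 88.7 and 64.4 CPM, or 78.1, 75.2, 92.0 and 64.2 CPM without the cluster that came mostly from HF replicate 1. The choroid plexus, at 90.9 ± 34.5 CPM, overlapped with it and was lowest in its place at a clustering resolution of 0.5 (61.5 CPM) and without MF replicate 1 (73.8 CPM). The hypothalamus, at 176 ± 9.59 CPM, was 2.30-fold higher than the thalamus in the means and higher in all 4 sections.

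Cnr1 was also the gene with the most uneven UMIs from spot to spot. Among cortex and hippocampus spots with at least 5000 UMIs, the 1% of spots with the highest Cnr1 CPM held 12.5% and 13.6% of all Cnr1 UMIs in MF, and 8.80% and 9.67% of them in HF. These were between 11 and 15 spots per section, and they held between 0.851% and 1.05% of all UMIs. For the other 7 genes the share of the gene's own UMIs in the 1% of spots highest for it was between 1.59% for Abhd12 and 7.37% for Napepld. A single spot had 148 Cnr1 UMIs in MF replicate 1, where the median spot had 5. In the other sections the richest spot held 80, 42 and 54 Cnr1 UMIs beside a median of 2. The variance of the Cnr1 count over that of Poisson counting was between 4.65 and 14.6 in the 4 sections, against 1.85 to 2.19 for Dagla and 0.972 to 1.11 for Daglb.

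The spots highest for Cnr1 also differed from the remaining spots in several interneuron genes. They were selected by Cnr1 alone, after its map had been seen, so the following ratios of CPM + 5 over that of the remaining spots are a description. Of a list of 10 interneuron genes, on which no filter was set, 6 had a ratio above 1 in all 4 sections. The share of all features above 1 in all 4 sections was not counted. This count and that of the excitatory list below are thus given without a background. Gad1, Gad2 and Slc32a1, which mark all neurons with the transmitter GABA, had ratios of at least 1.67, 2.23 and 1.49. Adarb2, a marker of interneurons born in the caudal ganglionic eminence, had 4.49 to 6.73. Slc17a8, which encodes the vesicular glutamate transporter VGLUT3 that interneurons with cholecystokinin also carry, had 3.97 to 12.6. For Cck, which encodes cholecystokinin, the ratios were 2.09, 1.65, 1.25 and 1.69. Pvalb, the marker of fast-spiking interneurons, had 0.713, 0.687, 0.683 and 1.04. Vip, which other interneurons of the caudal ganglionic eminence express, had 2.04 and 1.07 in MF and 0.481 and 0.613 in HF. The high spots differed in region between sections, and the remaining spots were not matched to them by area. Those in the hippocampus were 5 of 15 and 3 of 14 in MF, and 6 of 11 and 7 of 14 in HF. Lhx6, a transcription factor of interneurons from the medial ganglionic eminence, had 0.854, 0.610, 1.11 and 0.885, and Sst, their neuropeptide somatostatin, had 0.899, 1.57, 0.827 and 2.12. In the high spots Lhx6 was at only 12.3 and 6.31 CPM in MF and 17.3 and 13.1 CPM in HF. Vip was at 34.5 and 32.6 CPM there in HF, and Slc17a8 at 34.5 CPM in HF replicate 1. Over so few spots these levels rest on few UMIs, so their ratios are coarse. None of 10 genes of excitatory neurons had a ratio above 1 in all 4 sections, and Slc17a7, the vesicular glutamate transporter VGLUT1, was below 1 in each, between 0.709 and 0.935. Among all features with a mean of at least 20 CPM in the high spots, ranked by the lowest ratio of the 4 sections, Krt73 came first with 28.1 and 9.48 in MF and 10.7 and 18.3 in HF, followed by Yjefn3 with 6.98 to 13.9 and Kctd12 with 4.65 to 8.06. Since that minimum was set on the high spots themselves, Krt73, at 2.41 to 4.12 CPM in the remaining spots, could pass it only by being high there, and its rank supports nothing; Yjefn3 had 25.3 to 29.9 CPM and Kctd12 50.8 to 66.5 CPM in the remaining spots. Among the other endocannabinoid genes, Mgll had 1.43, 1.56, 1.28 and 0.959, and none of the 7 was above 1 in every section. The median depth of the high spots was 25041 and 11224.5 UMIs in MF and 7278 and 10098.5 UMIs in HF, against 25721 and 10952 UMIs in MF and 9264.5 and 11863 UMIs in HF in the remaining spots, so that it was higher in MF replicate 2 and lower in the others.

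**Figure D2:**
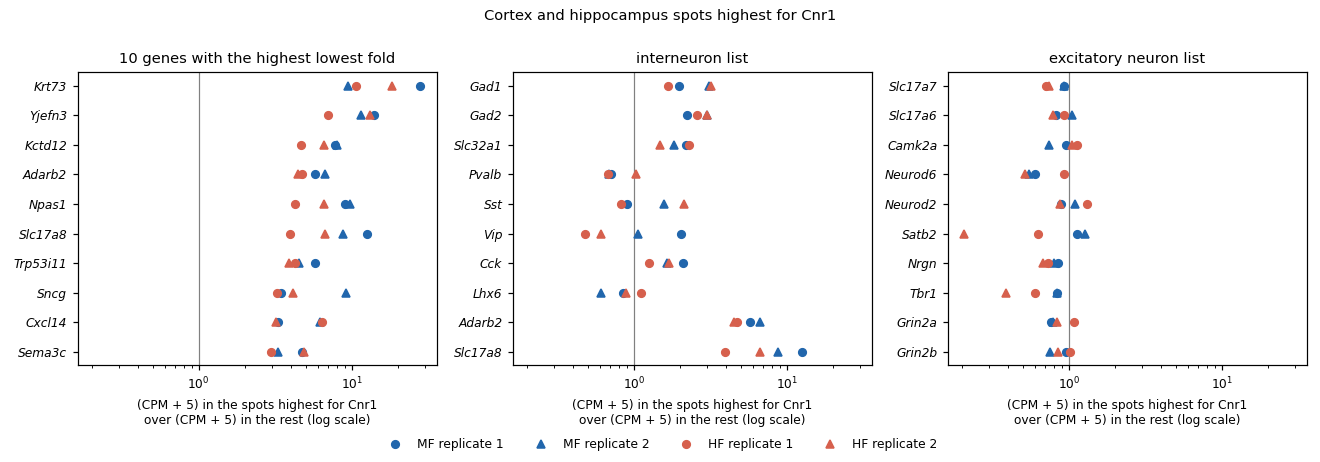
Ratio of CPM + 5 in the 1% of cortex and hippocampus spots highest for Cnr1 over CPM + 5 in the remaining spots (x axis, log scale) for 10 genes ranked by their lowest section, a list of interneuron genes and a list of excitatory neuron genes; each point is 1 section. Gad2 and Adarb2 lie to the right of 1 in every section, Pvalb, Vip and Slc17a7 do not; Krt73 and the other genes of the first panel were picked for their ratio.

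Dagla (ENSMUSG00000035735, chromosome 19, 10245265 to 10304877, minus strand) encodes the lipase that makes most of the 2-AG in brain. Its highest level was in CA1, with 370.4 and 473 CPM in MF and 451 and 509.6 CPM in HF, a mean of 451 ± 59.0 (SD, n = 4). CA1 was the highest area in each of the 4 sections. The dentate gyrus, with its granule cells, had 406 ± 36.3 CPM and CA2-3 had 393 ± 39.3 CPM, and these 3 cell layers overlapped. All 3 lay above the hippocampal neuropil without overlap, by 1.96-fold for CA1, 1.77-fold for the dentate gyrus and 1.71-fold for CA2-3. For Cnr1 the neuropil had instead stood above CA1. Thalamus, at 252 ± 33.6 CPM (249 ± 28.6 CPM without the cluster mostly of HF replicate 1), and cortical layer 4, at 238 ± 18.4 CPM, came next. In layer 4 the level was 1.27-fold that in layer 2-3 and 1.27-fold that in layer 5-6, with no overlap in either case. The hypothalamus, at 105 ± 11.1 CPM, and the choroid plexus, at 95.9 ± 24.4 CPM, were lowest.

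Daglb (ENSMUSG00000039206, chromosome 5, 143464584 to 143505942, plus strand), the second diacylglycerol lipase, is known mainly from immune cells and glia. Its level was highest in layer 2-3 of the cortex, at 93.1 and 93.6 CPM in MF and 86.5 and 88.8 CPM in HF. That was 1.23-fold the level of layer 4 and 1.65-fold that of the thalamus, without overlap. All cortical, olfactory and hippocampal areas had means between 71.3 and 90.5 CPM. The other 7 areas were between 50.3 and 58.6 CPM, and the step from layer 5-6 to the striatum, 1.22-fold, was the only pair of neighbours in the order that did not overlap.

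Napepld (ENSMUSG00000044968, chromosome 5, 21662901 to 21701396, minus strand) had its highest level in the thalamus. This area held 86.9 and 90.6 CPM in MF and 98 and 92.5 CPM in HF, a mean of 92.0 ± 4.64, and was the highest area in each section. Without the cluster mostly of HF replicate 1 the values were 87.1, 91.0, 95.3 and 93.8 CPM. The dentate gyrus followed at 70.7 ± 7.59 CPM and CA2-3 at 47.5 ± 5.61 CPM. None of these 3 areas overlapped with the next, and CA2-3 did not overlap with layer 2-3, at 32.3 ± 6.40 CPM. In CA1 the values were 12.4, 10.5, 16.9 and 14.3 CPM, from at least 6 UMIs per section. The dentate gyrus was thus 5.22-fold and CA2-3 3.51-fold above CA1, the area in which Dagla was highest. The thalamus was 3.04-fold above the hypothalamus and 3.27-fold above the neighbouring medial habenula. The other 12 areas lay between 18.9 and 32.3 CPM.

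**Figure D3:**
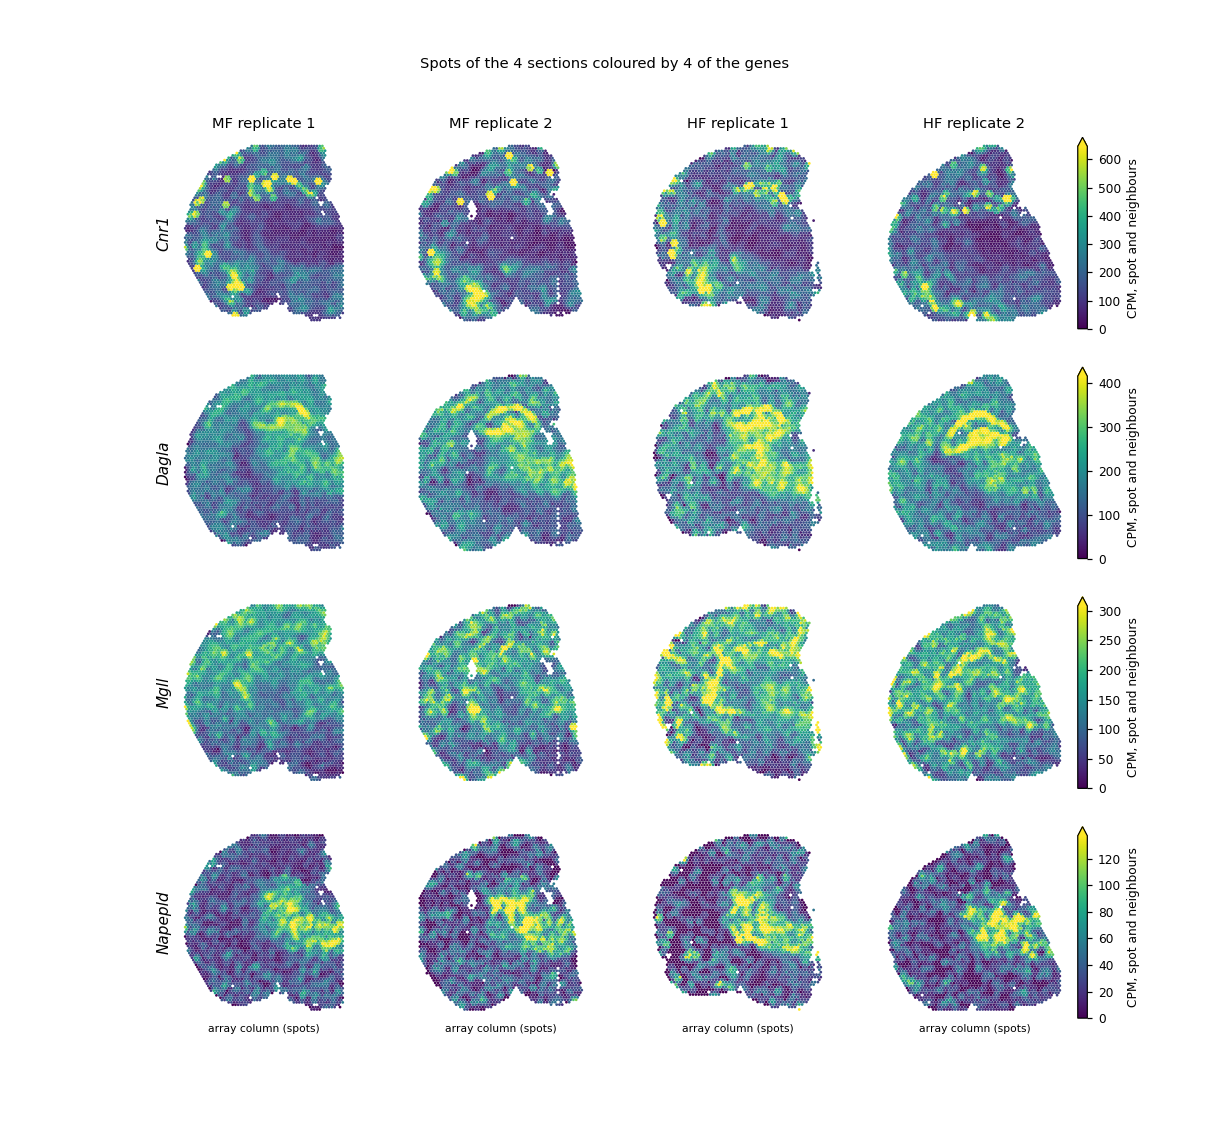
Spots of the 4 sections (columns) at their place on the array, coloured by the CPM of Cnr1, Dagla, Mgll and Napepld (rows), each summed over the spot and its neighbours; the colour scale of a row is shared by the sections and ends at the 98th percentile. Small bright patches of Cnr1 lie in the cortex and hippocampus, Dagla follows the hippocampal cell layers, and Napepld fills the thalamus and dentate gyrus.

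Mgll (ENSMUSG00000033174, chromosome 6, 88724412 to 88828360, plus strand) encodes monoacylglycerol lipase, the main enzyme of 2-AG breakdown in brain, found in axon terminals and astrocytes. Its highest levels were those of the hippocampal neuropil, with 207 and 208 CPM in MF and 262 and 236 CPM in HF, and of the white matter, with 195 and 206 CPM in MF and 264 and 216 CPM in HF. The means, 228 ± 26.1 and 220.3 ± 30.2 CPM, overlapped. The neuropil was 1.79-fold above CA1, where Mgll was at 127 ± 15.1 CPM, and CA2-3 was 1.47-fold above CA1, both without overlap. Mgll thus shared the order of neuropil over CA1 with Cnr1, and the order of Dagla was the reverse. In the cortex, layer 4 was 1.34-fold above layer 2-3 and 1.21-fold above layer 5-6, as for Dagla. The lowest area was the hypothalamus, with 68.1 and 80.3 CPM in MF and 93.9 and 93.4 CPM in HF.

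Abhd6 (ENSMUSG00000025277, chromosome 14, 8002902 to 8056763, plus strand) encodes a 2-AG hydrolase of the postsynaptic side. Its means were highest in CA2-3 at 77.7 ± 9.38 CPM, layer 2-3 at 72.9 ± 6.53 CPM and CA1 at 68.0 ± 12.7 CPM. These areas overlapped, and CA2-3 was the highest area in 1 of 4 sections. Layer 2-3 was 1.42-fold above layer 5-6 and 2.45-fold above the hypothalamus, which was lowest at 29.8 ± 2.55 CPM. The neuropil of the hippocampus had 45.5 ± 3.66 CPM.

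Abhd12 (ENSMUSG00000032046, chromosome 2, 150832493 to 150904741, minus strand) encodes a hydrolase best known for its action on lysophosphatidylserine, which also cleaves 2-AG. It was present everywhere, with means between 193 and 319 CPM in 15 areas and 146 ± 31.2 CPM in the choroid plexus. CA2-3, at 319 ± 11.8 CPM, and layer 5-6, at 317 ± 26.6 CPM, were the highest areas and overlapped. The thalamus, at 253 ± 11.1 CPM, was 1.31-fold above the medial habenula, without overlap.

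Faah (ENSMUSG00000034171, chromosome 4, 115967145 to 116017926, minus strand) shared its place with Dagla. CA2-3 had 348 and 338 CPM in MF and 301 and 370.4 CPM in HF, and CA1 had 306 and 344 CPM in MF and 305 and 350.4 CPM in HF. The 2 areas overlapped, and each was the highest in 2 sections. The dentate gyrus followed at 275 ± 13.8 CPM, below CA1 and above layer 2-3 without overlap on either side. In CA1 the level was 1.82-fold that of the neuropil. Over the cortical layers the means were between 136 and 200.2 CPM. The hypothalamus, at 83.2 ± 5.73 CPM, and the choroid plexus, at 76.5 ± 31.7 CPM, were lowest.

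Across the means of the 16 areas, on log2(CPM + 1), the members most alike were Dagla and Faah (Pearson r = 0.90), Faah and Abhd6 (r = 0.89) and Daglb and Abhd6 (r = 0.80). Cnr1 and Napepld ran apart (r = -0.26), and Cnr1 and Mgll had r = 0.15. These areas share the same 4 sections, and the coefficients are descriptions over 16 points. Among 10395 features, the 3 most like Cnr1 were Neurl1a (r = 0.87), Npas1 (0.84) and Htr3a (0.81), which encodes a serotonin receptor subunit of interneurons. For Dagla they were Epha4 (0.94), Ncdn (0.93) and Pcdhb13 (0.93), and for Daglb Iqsec2, Tbl1xr1 and Olfm1 (0.93, 0.93 and 0.92). Mgll had the weakest likeness, with Rnf141 (0.81), Trak2 (0.76) and Hsd11b1 (0.72). The 3 closest to Faah were Zbtb18, Nell2 and Arpc3 (0.97, 0.97 and 0.96), and those to Abhd6 were Sort1, Nell2 and Trpc1 (0.95, 0.93 and 0.93). Irs2 (0.85) and Prmt6 (0.81) were closest to Napepld, and both were highest in the thalamus. Rnf157, Kif5c and Otud7a (0.96, 0.95 and 0.94) were closest to Abhd12. The closest genes depended on the coefficient. Among the 3 closest by Spearman's rho, 0 of the 3 were kept for Cnr1, Daglb and Abhd12. For Dagla and Faah 1 was kept, and for Mgll, Napepld and Abhd6 2 were kept.

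Moran's I, a measure of how far neighbouring spots share their level, which is 0 without spatial order, was deposited for each feature. It averaged 0.217 ± 0.0488 for Cnr1, 0.215 ± 0.0692 for Dagla, 0.182 ± 0.0290 for Napepld, 0.154 ± 0.0832 for Mgll and 0.131 ± 0.0478 for Faah (SD, n = 4). In every section these 5 genes had a higher value than at least 88.9% of all features. Abhd12 had 0.0410 ± 0.0208, Abhd6 0.0339 ± 0.0176 and Daglb 0.0176 ± 0.0112. When it was computed from CPM and the 6 nearest neighbours, Cnr1 moved from the first to the fifth place among the 8 genes with a mean of 0.149, while Dagla, at 0.243, and Napepld, at 0.187, were highest.

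The comparison of HF with MF asked whether a mother's FA intake altered these genes in the brain of her offspring. No member was called between the diets, neither over the whole section nor in any of 6 regions, by the quasi-likelihood test of edgeR on UMIs summed per section, with calls at an adjusted p-value under 0.05 over all features and at least 1.2-fold. Over the whole section 0 of 8 members and 0% of 14971 features were called. With 0 of 8 members in each region, the share of features called was 0.0665% for cortex, 0.213% for hippocampus, 0% for thalamus and hypothalamus, 0.0539% for striatum and 0.0241% for white matter. DESeq2 called 0 of 8 members in each of the 7 comparisons. At an unadjusted p-value under 0.05, edgeR found 1 member over the whole section, where 6.81% of all features passed, 1 in the hippocampus (7.97% of features), 1 in the thalamus (6.9%), 1 in the hypothalamus (6.31%), 2 in the striatum (6.08%) and 0 in the cortex (8.09%) and in the white matter (5.6%). In simulated data of the same depth, where 200 features had been altered, 52% of 1.5-fold and 83% of 2-fold changes were found at the level of the section, and 22% and 72% in the striatum. Of the unaltered features, 20 and 16 were called in these simulations of the section, and 1 and 7 in those of the striatum. Over the whole section and in the cortex, hippocampus and white matter, every member differed by less than the 1.2-fold that a call needs. The largest log2 fold changes there were 0.19 (Mgll, whole section), 0.16 (Mgll, cortex), 0.23 (Dagla, hippocampus) and 0.24 (Mgll, white matter). No member could thus be called in these 4 comparisons, whatever its p-value. Whether differences under 1.5-fold would be found with 2 sections per diet was not tested.

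The values of Mgll lay higher in HF. Over the whole section it had 138 and 135 CPM in MF and 160.3 and 155 CPM in HF, so that the groups did not overlap, and the log2 fold change was 0.19 ± 0.07 (SE; edgeR adjusted p = 0.696). In the thalamus the values were 129 and 142 CPM in MF and 173 and 173 CPM in HF, with a log2 fold change of 0.35 ± 0.10 (edgeR adjusted p = 0.617). In the hypothalamus, with 68.1 and 80.3 CPM against 93.9 and 93.4 CPM, it was 0.33 ± 0.11 (edgeR adjusted p = 0.781). The HF sections lay above the MF sections in each comparison except the striatum, where the MF values of 121 and 99.4 CPM overlapped with 111 and 153 CPM in HF. The 7 comparisons share their sections, and the whole section contains the regions, so that they are not separate observations. Without the cluster that came mostly from HF replicate 1, the difference in the thalamus was 0.33 ± 0.10 (edgeR adjusted p = 0.685). Without HF replicate 1 and without HF replicate 2, Mgll in the thalamus was called (edgeR adjusted p = 0.0359 and 0.0324), but those fits rest on 1 HF section, and they called 452 and 646 of all features there. Without MF replicate 1 or MF replicate 2 it was not called.

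Dagla had a similar direction. Its values over the whole section were 177 and 189 CPM in MF and 219 and 195 CPM in HF (log2 fold change 0.17 ± 0.08, edgeR adjusted p = 0.726). In the hippocampus, its site of highest level, they were 295 and 326 CPM in MF and 362 and 365 CPM in HF, without overlap (0.23 ± 0.09, edgeR adjusted p = 0.530). In the striatum the difference was 0.00 ± 0.14, and its sign there turned with DESeq2 and with library size alone. In the thalamus HF replicate 1 stood highest with 299.98 CPM, beside 235 CPM in HF replicate 2 and 224 and 251 CPM in MF. Without HF replicate 2 the log2 fold change of Dagla there was 0.33, which rests on HF replicate 1 alone. Without the cluster mostly of HF replicate 1 that section had 289 CPM, and the difference was 0.16 ± 0.12 (edgeR adjusted p = 0.822) beside 0.17 ± 0.13 with it (edgeR adjusted p = 0.805).

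Abhd6 had lower values in HF. Over the whole section they were 49.0 and 49.3 CPM in MF and 45.9 and 41.6 CPM in HF (log2 fold change -0.18 ± 0.08, edgeR adjusted p = 0.722), and in the hippocampus 60.1 and 61.1 CPM against 53.4 and 51.9 CPM (-0.20 ± 0.11, edgeR adjusted p = 0.680). Its estimate was below 0 in all 7 comparisons, but in the hippocampus it turned to 0.04 when spots were thinned to 5000 UMIs. Abhd12, at 286 and 263 CPM in MF and 256 and 257 CPM in HF over the whole section, had -0.11 ± 0.08 (edgeR adjusted p = 0.785). Faah differed by -0.05 ± 0.07 and Daglb by -0.09 ± 0.08 over the whole section.

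For Cnr1 and Napepld the largest differences were in the striatum, the smallest of the tested regions. Over the whole section the diets overlapped for Cnr1, with 183 and 175 CPM in MF and 184 and 172 CPM in HF (-0.01 ± 0.07, edgeR adjusted p = 0.976). In the striatum it had 205 and 175 CPM in MF and 126 and 171 CPM in HF (-0.33 ± 0.14, edgeR adjusted p = 0.757). Without HF replicate 2 it was called there at -0.63 (edgeR adjusted p = 0.0420), and without HF replicate 1 the estimate was -0.19. Napepld had 24.1 and 24.2 CPM in the MF striatum and 12.6 and 14.7 CPM in HF, which rested on 80, 29, 10 and 30 UMIs (-0.78 ± 0.28, edgeR adjusted p = 0.651). In the thalamus, where it is most abundant, its difference was 0.10 ± 0.10 (edgeR adjusted p = 0.852), and 0.08 ± 0.10 without the cluster mostly of HF replicate 1 (edgeR adjusted p = 0.885). In a test of whether the diet difference varied between 5 regions, 0 of 8 members and 0.0856% of 14012 features were called by edgeR. Napepld was the member with the widest range over the regions, at 0.88 on the log2 scale (edgeR adjusted p = 0.382), and the only member of 8 with an unadjusted p-value under 0.05 there, as had 6.83% of features; DESeq2 called 0 of 8.

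**Figure D4:**
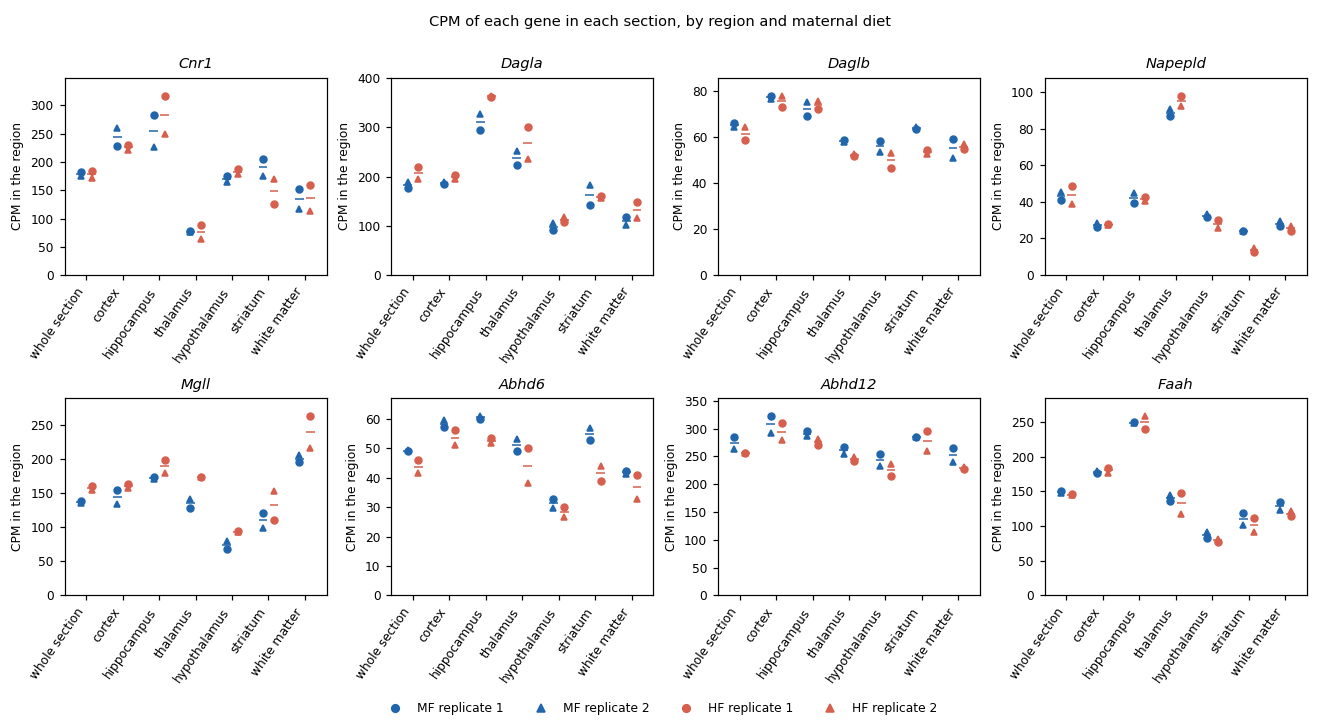
CPM of each gene (y axis, from 0) in the whole section and 6 regions (x axis), with MF sections in blue and HF sections in red; circles are replicate 1, triangles replicate 2 and short lines the group means. The HF points of Mgll lie above the MF points in all panels' regions but the striatum, and those of Napepld lie below in the striatum.

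The HF and MF sections of a member often did not overlap, which with 2 sections a group was common among all features. Over the whole section this held for 5 of 8 members and 39.6% of features. By region it held for 3 members and 38.2% of features (cortex), 4 and 37.8% (hippocampus), 4 and 38.2% (thalamus), 6 and 37.4% (hypothalamus), 4 and 35.6% (striatum), and 4 and 34.5% (white matter). The directions were mixed, with Dagla and Mgll above and Faah, Abhd6 and Abhd12 below over the whole section. The median log2 fold change of the 8 genes was -0.03 over the whole section, beside 0.00 for all features, and -0.23 in the striatum, beside 0.00. In the striatum it was -0.14 without HF replicate 2 and -0.11 with spots thinned to 5000 UMIs. Under the other alternatives it lay between -0.26 and -0.19 there.

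**Figure D5:**
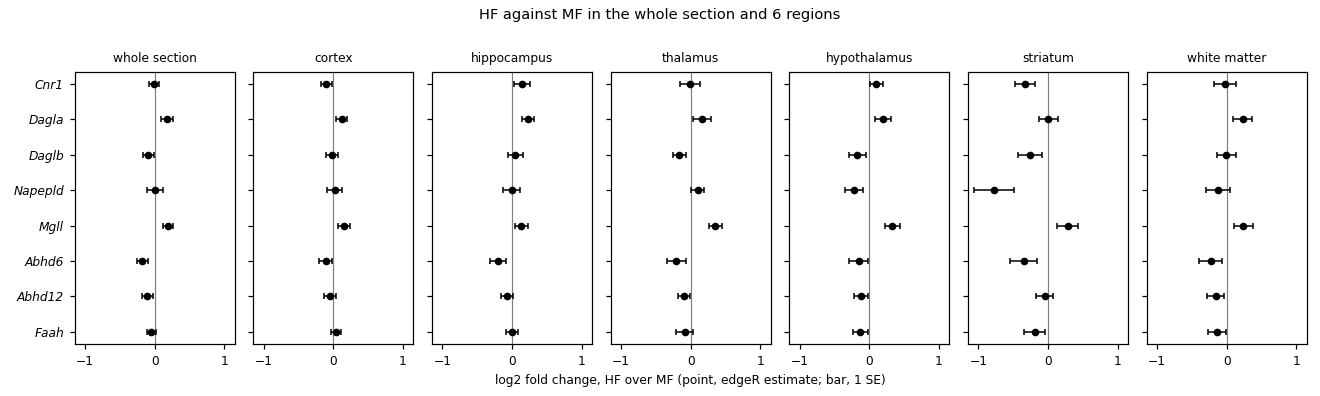
Log2 fold change of HF over MF (x axis) for each gene (y axis) in the whole section and 6 regions; points are edgeR estimates and bars 1 SE. The bars of Mgll lie right of 0 in all 7 panels, and the widest bar is that of Napepld in the striatum, at -0.78 ± 0.28.

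Other genes moved with the diets in the same sums. A list of 14 immediate early genes, which neurons switch on after activity, summed to 386 and 387 CPM in MF and to 706 and 792 CPM in HF. Of these, 12 of the 14 genes had every HF section above every MF section, as had 21.8% of features tested. In the hippocampus they summed to 575 and 614 CPM in MF and to 1024 and 1141 CPM in HF (12 of 14 genes, beside 18.7% of features). In the cortex they summed to 520 and 509 CPM in MF and to 1238 and 1201 CPM in HF (12 of 14 genes, beside 16.4% of features). In the thalamus the sums were 236 and 269 CPM in MF and 442 and 365 CPM in HF (8 of 14 genes, beside 20.5% of features). In the striatum they were 542 and 650.1 CPM in MF and 1080.1 and 1074.6 CPM in HF (9 of 14 genes, beside 17.8% of features). A list of 10 oligodendrocyte genes summed over the whole section to 24978 and 26140.4 CPM in MF and 20879 and 22202 CPM in HF. Of these, 9 of 10 genes had every HF section below every MF section, as had 17.9% of features tested. In the hippocampus the sums were 15552 and 14510.4 CPM in MF and 11188 and 10042 CPM in HF, an HF over MF ratio of 0.706. In the thalamus they were 27014 and 28817 CPM against 22762 and 22884 CPM (0.818), and in the cortex 12018 and 11218 CPM against 9797 and 8810.04 CPM (0.801). In each of these regions all 10 genes had every HF section below every MF section. The share of features tested was 19.2% in the hippocampus, 17.6% in the thalamus and 21.8% in the cortex. In the striatum the ratio was 0.861, with 7 of 10 genes and 17.8% of features lower in HF without overlap. In the white matter it was 0.956, with 1 gene and 15.5% of features lower without overlap. In the hypothalamus the list summed to 16155 and 15086 CPM in MF and 16262 and 15127 CPM in HF. Astrocyte genes, 10 in the list, summed to 1513 and 1533 CPM in the MF thalamus and 1519 and 1421 CPM in the HF thalamus. The HF over MF ratio of this list ranged from 0.898 (cortex) to 0.989 (hypothalamus). Of its genes, 5 were lower and 1 was higher in the HF striatum without overlap. Excitatory neuron genes, also 10, summed to 6697 and 6773 CPM in the MF hippocampus and 7285 and 7353 CPM in HF. Cortex sums were 6903 and 6874 CPM in MF and 7315 and 7320 CPM in HF. For both, 5 genes were higher in HF without overlap and 1 was lower. Elsewhere their ratio lay between 0.995 and 1.04. No gene of these lists was at 0 in a section. Their part in the values of Mgll, Dagla, Abhd6 and Napepld was not tested.

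The wider pathway was followed through 45 further genes in 5 lists, of which 40 passed the filter on low counts over the whole section. None of the 40 was called between HF and MF by edgeR over the whole section, with 0% of all features called, and 0 were called in each of the 6 regions. Of the further receptors, Ppara, a nuclear receptor for fatty acid amides, was at 3.72 ± 0.532 CPM and Gpr55 at 0.321 ± 0.0898 CPM (SD, n = 4). Cnr2, the CB2 receptor of immune cells, did not pass the filter at 0.153 ± 0.0421 CPM and is named here after its value was seen. Among the partners of the CB1 receptor, the G protein subunit gene Gnao1 had 427 and 411 CPM in MF and 438 and 431 CPM in HF, and Sgip1, which slows internalisation of the receptor, had 286 and 303 CPM in MF and 327 and 297 CPM in HF. Upstream of 2-AG, the phospholipase gene Plcb1 was highest in layer 4 at 393 CPM and Homer1, a scaffold of glutamate receptors, in layer 2-3 at 354 CPM. Gde1, an alternative enzyme of anandamide synthesis, had its highest area in layer 5-6 at 615 CPM, and Gdpd1, of the same enzyme family, in CA2-3 at 140.2 CPM. Of the carriers of fatty acids, Fabp5 was highest in white matter at 303 CPM and Fabp3 in layer 4 at 165 CPM. Fabp7, the carrier of radial glia and astrocytes, was called in some alternative fits only. It had the lowest unadjusted p of the lists over the whole section, with 82.5 and 88.6 CPM in MF and 69.9 and 53.1 CPM in HF (log2 fold change -0.49 ± 0.13, edgeR adjusted p = 0.696). In the hippocampus it was 79.3 and 86.2 CPM against 63.5 and 49.8 CPM (-0.55 ± 0.12, edgeR adjusted p = 0.118).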

How the data were processed

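Visium-FFPE sections of 4 brains were used, 2 per diet. Raw UMI counts per feature and spot were deposited, without normalization, after alignment with Space Ranger 2.0.0 by the authors, with mm10 (GRCm38) as the genome; per the file headers a further table gives Moran's I, a score of spatial order, and p-values that were not used. Gene positions are those of GENCODE vM21. The genes and lists were chosen with earlier results of these data known.

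Kept spots had at least 500 UMIs and 250 genes. Leiden clustering (leidenalg 0.10.2, resolution 1, 20 neighbours) used 2000 variable genes, scaled per section and reduced to 30 components. Clusters were named by the class with most markers in their 50 leading genes, and cortex and hippocampus were clustered again. The 8 genes, the pathway lists and immediate early genes were left out. A cluster without a class was called by its leading genes, Pvalb, Six3 and Spp1.

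Section sums were compared with edgeR 4.0.16 (TMM, filterByExpr, quasi-likelihood test, Benjamini-Hochberg adjustment). The test over 5 regions had the section as a block. On simulated counts that test recovered 67.5% of 200 features changed 2-fold in 1 region, and it called 20 unchanged features. With 2 sections against 2 the smallest exact two-sided p is 0.333. Sections of 1 diet differed beyond sampling noise, with a chi-square per gene of 8.20 for MF and 31.2 for HF. Named genes are all 8, listed pathway genes called in a fit, the 2 of each list with the highest level, and the 3 most like each member, of which 1 is not reported here. Genes of the spots highest for Cnr1 were added after that map was seen. Alternatives were DESeq2 1.42.0, library size alone, no filter, spots thinned to 5000 UMIs (510 spots of HF replicate 1 and from 9 to 125 of the others were too shallow and left out), resolution 0.5, a replicate block, and each section left out; a crossed block, the thalamus without 1 cluster and the section without surface spots were chosen after seeing the data.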

Additional observations from a re-analysis of the deposited data

How the results depend on the processing

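With 2 sections per diet, each section was left out in turn, and a group left with 1 section is assumed to vary like the other. Members were called only in fits left with 1 HF section, so those calls rest on that assumption. They were Mgll in the thalamus without HF replicate 1 and without HF replicate 2, and Dagla there and Cnr1 in the striatum without HF replicate 2. In the other comparisons and under every other alternative 0 of 8 members were called. Features called over the whole section were 0 as reported, 1166 without HF replicate 1, 840 without HF replicate 2, 23 with DESeq2 and 5 with no filter. The cause was not tested.

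The replicate numbers are not known to pair the sections (correlation of deviations from the group means -0.165). The replicate block called 0 of 8 members in all 7 comparisons, and its counts of features were 0 (whole section), 16 (cortex), 91 (hippocampus), 43 (thalamus), 1 (hypothalamus), 9 (striatum) and 6 (white matter). Crossed numbers, a pairing chosen after seeing the data, called 11, 156, 23, 81, 1, 19 and 18 features and 0 members.

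Features called in the region fits were 25, 21, 5, 9, 1 and 2 with DESeq2 (cortex, hippocampus, thalamus, hypothalamus, striatum and white matter), 172, 120, 87, 22, 19 and 24 with no filter, and 26, 11, 1, 0, 3 and 4 with thinned spots; without 1 section they ranged from 13 to 97, 14 to 471, 1 to 646, 0 to 879, 2 to 118 and 6 to 44. In the region by diet test they were 29 with DESeq2, 20 with library size alone, 271 with no filter, and from 0 to 392 without 1 section, with 0 members in each.

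Pathway genes called with no filter were 1 in the cortex (Fabp7), 2 in the hippocampus (Plcb4, Fabp7) and 1 in the thalamus (Fabp7). The replicate block called 1 in the hippocampus and 1 in the thalamus, and the crossed block 1 in the cortex and 1 in the thalamus, Fabp7 in each case. Without 1 section they were 0 to 7 (whole section), 0 to 1 (cortex), 0 to 3 (hippocampus), 0 to 3 (thalamus), 0 to 4 (hypothalamus), 0 to 1 (striatum) and 0 to 1 (white matter).

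Of 56 differences, 45 alternative values over 19 of them took the other sign, none of them called. For Napepld over the whole section these were -0.00258 with no filter, -0.00166 with the replicate block, -0.00403 with the crossed block and -0.026 with thinned spots, beside 0.0033. Thinned spots also gave 0.021 for Cnr1 and 0.0020 for Faah over the whole section, 0.10 for Napepld and 0.035 for Abhd6 in the hippocampus, 0.14 for Cnr1 in the thalamus and 0.17 for Daglb in the white matter. Without the cluster mostly of HF replicate 1, Cnr1 in the thalamus was at 0.012. Dagla in the striatum was at -0.0162 with DESeq2, -0.0011 with library size alone, -0.0036 with no filter and -0.024 with the replicate block. In the white matter Daglb was at 0.0014 with DESeq2, 0.0079 with library size alone and 0.011 with the replicate block, which put Cnr1 at 0.0024. Without 1 section the log2 values ranged from -0.050 to 0.023 (Cnr1) and -0.15 to 0.15 (Napepld) over the whole section. They were -0.071 to 0.028 (Daglb), -0.042 to 0.073 (Napepld) and -0.12 to 0.030 (Abhd12) in the cortex, and -0.041 to 0.32 (Cnr1), -0.018 to 0.096 (Daglb), -0.058 to 0.060 (Faah) and -0.11 to 0.068 (Napepld) in the hippocampus. In the thalamus they were -0.26 to 0.19 (Cnr1), -0.013 to 0.33 (Dagla) and -0.25 to 0.063 (Faah), in the striatum -0.20 to 0.16 (Dagla), -0.044 to 0.45 (Mgll) and -0.13 to 0.053 (Abhd12), and in the white matter -0.28 to 0.22 (Cnr1) and -0.085 to 0.10 (Daglb).

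The highest area was kept by 7 of 8 members under TMM-scaled CPM, thinned spots, the mean over spots and resolution 0.5, and by 5 to 8 without 1 section; Dagla, Daglb and Napepld kept theirs in all of these. The lowest area was kept by 7, 5, 7 and 7 members under the first-named alternatives and by 7 to 8 without 1 section; Cnr1 moved from thalamus to choroid plexus at resolution 0.5 and without MF replicate 1. Without the thalamus cluster mostly of HF replicate 1, chosen after seeing the data, 8 of 8 kept both. Of the 24 genes most like a member, 8 were also among the 3 closest by Spearman's rho, and 15 to 20 without 1 section. Moran's I on CPM left 3 of 8 members at their place.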
